A study of Mus musculus with 12 samples.

Results

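Cytochrome P450 genes of families 1 to 4 were followed in livers from mice that carried pancreatic ductal adenocarcinoma. The genes were chosen by name alone, as every gene whose symbol is Cyp, a family number from 1 to 4, a subfamily letter and a gene number, except Cyp2c70. This gave 75 of the 56748 genes in the deposited tables, in 21 subfamilies. Pseudogenes (32 symbols ending in -ps) and 5 genes with a further letter at the end of the symbol, such as Cyp4a12a, fall outside that rule. Poly(A)-selected RNA was sequenced from 12 livers of mice aged 12 weeks, 3 per group, and all groups carried the tumour. The isotype group is the control, named in the labels both as isotype control and as no treatment. The agoCD40 group received an agonistic antibody to CD40, a costimulatory receptor of B cells and other antigen-presenting cells. The antiIL1R1 group received an antibody to IL-1R1, the signalling receptor for interleukin 1, and the Combo group received both antibodies. The labels give no strain, sex, tumour model, antibody dose or time of sampling, and they do not say whether the livers held metastases. The labels do not say how the replicates of a group are related, so the tests take the differences among these livers as the only error.

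The enzymes are heme proteins of the endoplasmic reticulum that insert oxygen into their substrates, with electrons passed on by the reductase Por. Families 1 to 3 oxidise drugs, pollutants, steroids and polyunsaturated fatty acids, and family 4 mostly hydroxylates the far end of fatty acid chains. In hepatocytes many of these genes answer to receptors for foreign compounds or fatty acids (Ahr, Nr1i2, Nr1i3 and Ppara), and inflammation is known to lower a number of them. Several mouse members also differ in level between the sexes.

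Total counts were 18681390 to 27118712 per library. The mitochondrial share of counts was highest in antiIL1R1 2 (14.8%) and isotype 2 (14.1%), and the remaining libraries lay between 6.23% and 12.2%. A list of 10 hepatocyte markers summed to 53948 to 70501 TPM (a level per transcript length, scaled to the library) over the 12 libraries. Of 8 exocrine pancreas markers, 5 (Cpa1, Pnlip, Ctrb1, Amy2a5 and Cpb1) were listed at 0 TPM in all groups, and the list summed to 25.8 to 71.6 TPM, nearly all of it Cela1. The Y-linked transcripts Ddx3y, Eif2s3y, Kdm5d and Uty were present in all 12 libraries and the X-inactivation transcript Xist reached at most 0.301 TPM, the same pattern in each group.

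Of the 75 genes, 54 had enough counts to be tested and 21 did not. Of the 21, 10 had 0 counts in all 12 libraries (Cyp2b13, Cyp2b19, Cyp2b23, Cyp2c66, Cyp2d34, Cyp2j11, Cyp2j12, Cyp2w1, Cyp4a29 and Cyp4x1), which allows up to 0.0104 CPM (counts scaled to library size) over all libraries together, counting error only. The other 11 had 1 to 48 counts in total, among them Cyp3a16 with 15 and Cyp3a44 with 30.01 estimated counts. On average over the libraries, 3 genes lay over 1000 TPM, 19 lay between 100 and 1000 TPM, 12 between 10 and 100, 12 between 1 and 10, and 8 tested genes were at 1 TPM or lower. The 5 most abundant genes held 56.9% to 64.1% of the summed TPM of all 75 in each library.

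Cyp2e1, which oxidises ethanol and acetaminophen around the central vein, was the most abundant. Its level was 5353, 3093 and 2959 TPM in isotype, 4450.2, 5852 and 4872 in agoCD40, 5942, 3156 and 3704 in antiIL1R1, and 3121, 4843 and 5642 in Combo. The 4 groups overlapped. Cyp3a11, the main mouse drug-oxidising enzyme of family 3, ranked second with 1519 to 3464 TPM, and both of these extremes were isotype libraries. Cyp2d9, a testosterone hydroxylase, followed with 552 to 1482 TPM, lowest in isotype 3 and highest in agoCD40 2. By subfamily, Cyp2e held 28.2% of the summed TPM of all 75 genes on average, Cyp3a 18.5%, Cyp2d 16.6%, Cyp2c 15.9%, Cyp2a 7.10%, Cyp2f 4.63% and Cyp1a 3.75%. The fatty acid hydroxylases were smaller, with 1.86% for Cyp4f and 1.15% for the Cyp4a members. The Cyp4a share ran from 0.278% to 2.08% between libraries. It leaves out Cyp4a12a and Cyp4a12b, which fall outside the naming rule. Their group means were 91.8 to 154.9 and 34.2 to 78.5 TPM, so the share understates the whole subfamily.

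Summed over all 75 genes, the level was 19041, 10533 and 12131 TPM in isotype, 15072, 19305 and 17221 in agoCD40, 19173, 11646 and 11593 in antiIL1R1, and 14047, 18594 and 18980.2 in Combo. These sums are 1.05% to 1.93% of all transcripts. In isotype and in antiIL1R1 replicate 1 stood far above the other libraries of its group, and the 4 groups overlapped. The stacked bars of summed TPM show that the same subfamilies led in every library. Because each liver is a mixture, fewer hepatocytes and less of a transcript per hepatocyte cannot be told apart in these sums.

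**Figure D1:**
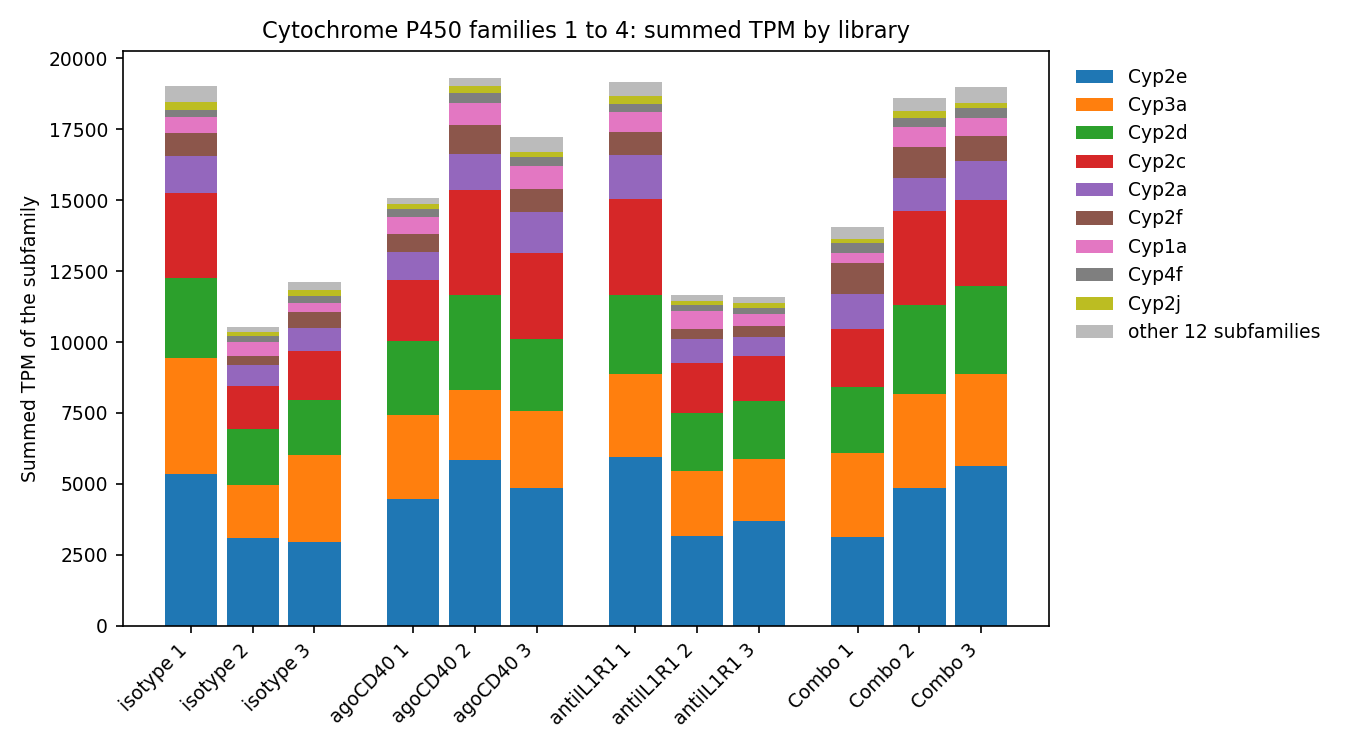
Summed TPM of cytochrome P450 families 1 to 4 in each of the 12 libraries, as stacked bars by subfamily with the smaller subfamilies joined. The sums run from 10533 TPM in isotype 2 to 19305 TPM in agoCD40 2, and Cyp2e, Cyp3a, Cyp2d and Cyp2c form the largest blocks.

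With the CD40 agonist alone, 1 member passed the test against isotype, and it was higher: Cyp2c40, an arachidonic acid hydroxylase. That is 1 of 54, beside 0.718% of all 15465 genes tested (edgeR quasi-likelihood test, Benjamini-Hochberg adjusted p under 0.05 over all genes). DESeq2 and limma on log2(TPM + 1) each called 2 members (3.7%), Cyp2c40 and Cyp2c69, beside 2.58% and 0.382% of all genes. Below that threshold the members leaned upward. Positive log2 fold changes were found for 44 of 54 members, beside 47.2% of all genes, with a median of 0.32 over the members and -0.02 over all genes tested. An unadjusted p under 0.05 was reached by 15 members (27.8%), beside 10.2% of all genes. Of these, 13 had a positive fold change (24.1% of members, beside 5.02% of all genes) and 2 a negative one (3.7%, beside 5.17%). In 13 members (24.1%) the 3 agoCD40 libraries all lay above the 3 isotype libraries, beside 7.52% of all genes. In 1 member (1.85%) they all lay below, beside 6.84%. The count of 15 was 6 without isotype 3, beside 8.77% of all genes, and 7 without agoCD40 3, beside 6.50%. Without isotype 3 the members thus stood close to the background. The median was 0.23 without isotype 3 and 0.17 without agoCD40 3. Without any 1 of the other isotype or agoCD40 libraries the count was 12 to 19, beside 7.81% to 13.4% of all genes. The medians were then 0.34 to 0.51. Isotype 3 was the lowest library of its group for 29 of the 54 members, and agoCD40 3 the highest of its group for 34.

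The direction was not the same in every subfamily. All 12 tested Cyp2c genes (median 0.44), all 8 Cyp2d genes (median 0.39) and all 6 Cyp4f genes (median 0.23) had positive fold changes in agoCD40 against isotype. The tested Cyp3a and Cyp4a members were split, each with 2 of 4 positive. Cyp4a12a and Cyp4a12b, outside the naming rule, were both positive. All but Cyp2c40 among these genes missed the threshold, and each sign is a value rather than a call. The plot of fold changes by subfamily shows the Cyp2c row standing to the right of 0 in the first panel. In Combo against isotype 8 of the 12 genes were positive (median 0.25). The other 4 were negative, the lowest at -0.11 (Cyp2c68). In Combo against agoCD40 9 of the 12 were negative (median -0.47), which means lower than in agoCD40 and gives no position relative to isotype. The first and last panels share the agoCD40 libraries.

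**Figure D2:**
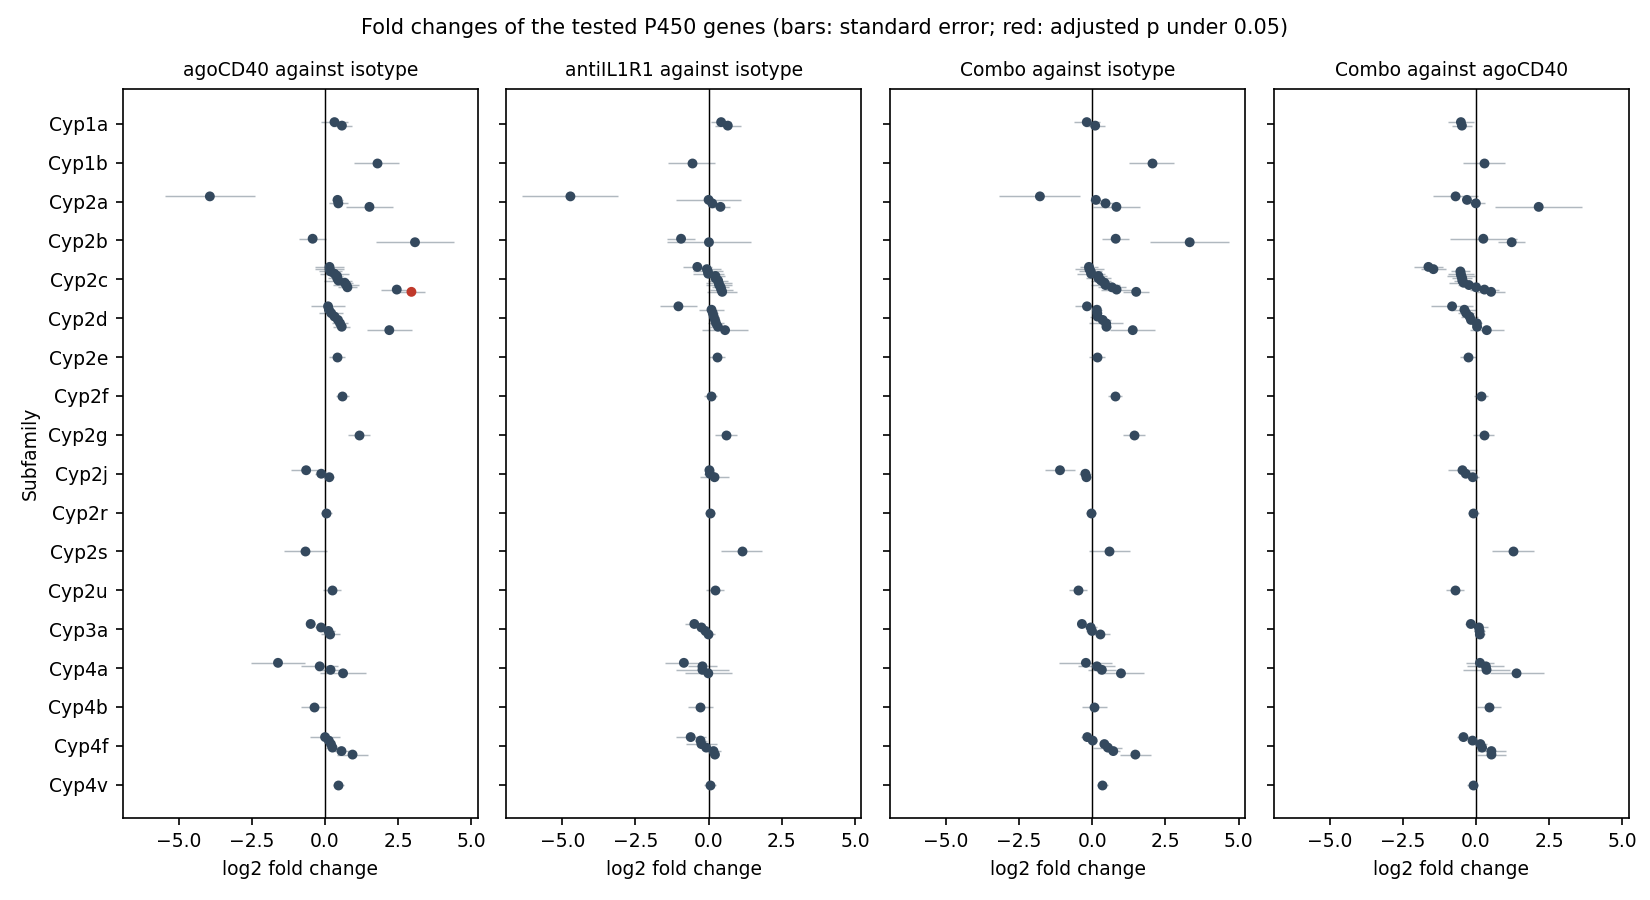
Log2 fold change of the 54 tested genes, 1 point per gene with its standard error as a bar, by subfamily (rows) in 4 comparisons (panels). The 1 red point, Cyp2c40 in agoCD40 against isotype at 2.95, is the only one past an adjusted p of 0.05.

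Cyp2c40 (ENSMUSG00000025004) measured 8.09, 6.03 and 3.23 CPM (counts scaled to library size with TMM factors) in isotype and 42.4, 28.1 and 62.8 in agoCD40. It was 6.37, 10.004 and 5.72 CPM in antiIL1R1, and 7.12, 19.1 and 22.5 in Combo. Every agoCD40 library lay above every library of the other 3 groups, and Combo 1 lay within the isotype range. The log2 fold change of agoCD40 against isotype was 2.95 ± 0.46 (standard error; edgeR adjusted p = 0.0107). Left out one at a time, 5 of the 6 libraries kept the call, and without agoCD40 3 the fold change was 2.62 with an edgeR adjusted p of 0.0560. Combo stood at 1.4996 ± 0.44 against isotype (edgeR adjusted p = 0.197) and at -1.45 ± 0.43 against agoCD40 (edgeR adjusted p = 0.517), so neither difference passed. DESeq2 did call Combo against isotype (adjusted p = 0.0342), without calling Combo against agoCD40. An edgeR fit without the low-count filter called both.

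Cyp2c69 (ENSMUSG00000092008), the neighbour of Cyp2c40, was also highest in agoCD40 and next highest in Combo by group mean, at a lower level. It measured 2.198, 0.603 and 0.556 CPM in isotype, 5.69, 5.53 and 6.92 in agoCD40, 0.683, 1.35 and 1.23 in antiIL1R1, and 1.10, 1.92 and 2.87 in Combo. The agoCD40 libraries again lay above all others. The fold change of agoCD40 against isotype was 2.45 ± 0.53 on the log2 scale and just missed the threshold (edgeR adjusted p = 0.0584). With 1 library left out at a time, the fold change ran from 2.11 to 3.37. It passed only without isotype 1 (3.37, edgeR adjusted p = 0.00995). The highest edgeR adjusted p was 0.221, without agoCD40 3. DESeq2 called Cyp2c69 with all libraries (adjusted p = 0.000325), and so did limma on log2(TPM + 1), with a smaller fold change of 1.66 (adjusted p = 0.0257). Both tools also called Cyp2c40.

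These counts depend on how reads were divided between near-identical genes. In the RefSeq gene order the stretch reads Cyp2c67, Cyp2c68, Cyp2c40 and Cyp2c69. Transcripts of Cyp2c40 were 97.8% identical to those of Cyp2c69, 97.6% to Cyp2c67 and 98.03% to Cyp2c68 over aligned bases. Of all stretches of 31 bases in the Cyp2c40 transcripts, 84.5% also occur in another gene, the highest share among the members. For Cyp2c67, Cyp2c69 and Cyp2c68 the share was 67.6%, 65.9% and 62.0%. The values of these 4 genes are uncertain for that reason, although the groups can still be compared on their sum.

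The promoters of the 4 genes are shown because the deposited values separate the genes while parts of their start regions are alike. Over aligned bases of the promoter windows, Cyp2c40 and Cyp2c69 were 98.9% identical. The remaining pairs were 91.6% to 94.4% identical. The windows below come from the RefSeq promoter table for GRCm38.p6 and lie on the minus strand of chromosome 19, in chr19:39812765-39813064 for Cyp2c40, chr19:39886720-39887019 for Cyp2c69, chr19:39648993-39649292 for Cyp2c67 and chr19:39741052-39741351 for Cyp2c68. Each is written 5′ to 3′, and the capitals mark CAAAGTCCA, a sequence of the type bound by the hepatocyte receptor Hnf4a.
Cyp2c40: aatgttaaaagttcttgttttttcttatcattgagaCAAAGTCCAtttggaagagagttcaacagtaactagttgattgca
Cyp2c69: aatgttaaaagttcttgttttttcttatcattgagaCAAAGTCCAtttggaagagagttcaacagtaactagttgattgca
Cyp2c67: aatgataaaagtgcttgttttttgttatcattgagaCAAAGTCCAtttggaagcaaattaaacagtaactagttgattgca
Cyp2c68: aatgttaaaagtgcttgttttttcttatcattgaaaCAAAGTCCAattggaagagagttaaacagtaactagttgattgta
The printed windows of Cyp2c40 and Cyp2c69 were identical over 81 bases, and 71 of the 81 positions were the same in all 4 genes. The capitals start 45 bases before the annotated start of Cyp2c40, 75 before that of Cyp2c69, 125 before that of Cyp2c67 and 77 before that of Cyp2c68. Searched on both strands, CAAAGTCCA was in 156 of 32851 promoter windows of 300 bases (0.475%) and in 7 of the 68 windows of 61 matched member genes. Of those 7 windows, 5 belong to Cyp2c genes, in 13 Cyp2c windows. The 5 are Cyp2c65 and the 4 near-identical genes printed above, whose matches are not independent of each other. The others belong to Cyp3a11 and Cyp3a16. The 7 of 68 therefore cannot be read as enrichment beside 0.475%, and enrichment was not tested. Further sequences were searched on both strands in the same windows. TATAAA was in 38.2% of member windows and 13.6% of all windows. The C/EBP-type TTGCNNAA was in 27.9% and 10.8%, and the STAT5-type TTCNNNGAA in 5.88% and 8.30%. An HNF1-type sequence was in 0 of the 68 member windows and in 20 of the 32851. Windows of close relatives are not independent here either, and enrichment was not tested for any of these sequences. A match is a string of letters and says nothing about binding in these livers.

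Cyp2c67 and Cyp2c68 are by far the more abundant of the 4 genes. Cyp2c67 measured 147, 148 and 109 CPM in isotype, 215, 194 and 236 in agoCD40, 209, 185 and 143 in antiIL1R1, and 83.9, 158 and 225 in Combo. Its agoCD40 libraries lay above the isotype libraries, with a log2 fold change of 0.67 ± 0.28 (edgeR adjusted p = 0.432). Cyp2c68 overlapped between agoCD40 and isotype, with a log2 fold change of 0.42 ± 0.31 (edgeR adjusted p = 0.765). The sum of the 4 genes was 249.8, 192 and 181 TPM in isotype, 322, 307 and 375 in agoCD40, 288, 230.1 and 195 in antiIL1R1, and 138, 275 and 320.1 in Combo. The agoCD40 sums stood above all isotype and antiIL1R1 sums. Cyp2c40 and Cyp2c69 together made up 1.70% to 3.29% of that sum in isotype, 8.91% to 12.5% in agoCD40, 1.83% to 2.77% in antiIL1R1 and 4.91% to 6.12% in Combo. On this within-stretch share the 3 Combo libraries, Combo 1 included, lay between the isotype and agoCD40 libraries with no overlap on either side. This share depends on how reads were divided between the 4 near-identical genes and is uncertain for that reason. It was looked at after the values were seen and was not tested.

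**Figure D3:**
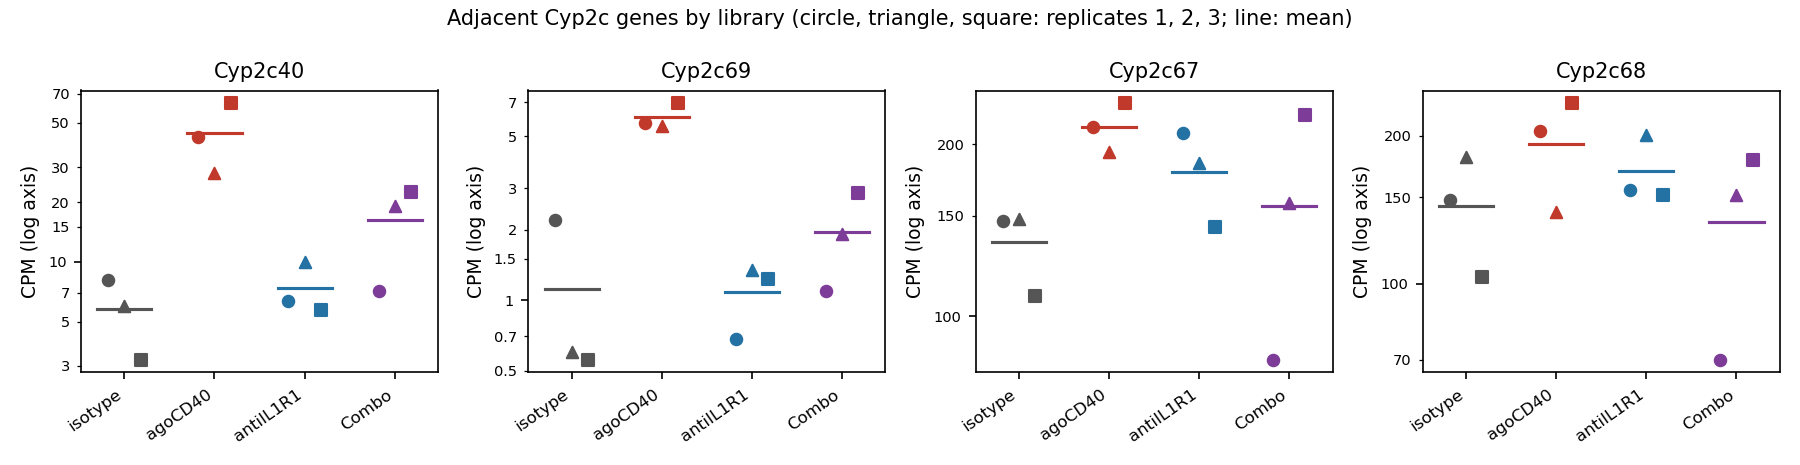
CPM (log axis) of 4 adjacent, near-identical Cyp2c genes in each library, with the group mean as a line. Cyp2c40 and Cyp2c69 are highest in the 3 agoCD40 libraries, while Cyp2c67 and Cyp2c68 differ less between groups and are lowest in Combo 1.

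Several other measures also differed between agoCD40 and isotype, and some of them differed from isotype in other groups as well. Of 7 B-cell markers, 5 were higher in agoCD40 than in isotype (Cd79a, Ighm, Igkc, Jchain and Ms4a1), and their list summed to 21.9 to 32.1 TPM in isotype, 210.3 to 450.3 in agoCD40, 34.2 to 51.4 in antiIL1R1 and 282 to 453 in Combo. Of 6 Kupffer-cell markers, 3 were lower (Cd163, Clec4f and Vsig4). Their list summed to 138 to 306 TPM in isotype, 69.8 to 129 in agoCD40, 136 to 147 in antiIL1R1 and 92.9 to 139 in Combo. Of 15 acute-phase genes, 2 were lower (Itih3 and Itih4). Their list summed to 16973 to 30073 TPM in isotype, 9931 to 12343 in agoCD40, 10931 to 15086 in antiIL1R1 and 8762 to 11488 in Combo. Each of the other groups thus lay below isotype, blockade alone included. In antiIL1R1 against isotype 0 of the 15 passed and 11 reached an unadjusted p under 0.05 (edgeR), beside 3.65% of all genes. The 10 hepatocyte markers summed to 66464 to 69416 TPM in isotype, 55494 to 58888 in agoCD40, 66502 to 70501 in antiIL1R1 and 53948 to 62140 in Combo. In agoCD40 1 of them, Tat, was lower than in isotype. Of 6 neutrophil markers, 1 was higher (Camp). Their list summed to 51.5 to 135 TPM in isotype, 131 to 228 in agoCD40, 6.33 to 20.8 in antiIL1R1 and 98.9 to 230.5 in Combo. Of 5 bile duct and epithelial markers, 0 passed and 3 reached an unadjusted p under 0.05. That list summed to 22.0 to 41.0 TPM in isotype, 59.5 to 98.6 in agoCD40, 28.5 to 44.7 in antiIL1R1 and 40.3 to 60.4 in Combo, with all 5 log2 fold changes positive in agoCD40 against isotype and all 5 negative in Combo against agoCD40. The part of these values in the Cyp2c40 result was not tested.

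Within the rest of Cyp2c, Cyp2c29, the most abundant member of the subfamily and a gene known to answer to Nr1i3, varied widely inside groups. It measured 1474, 383 and 893 CPM in isotype, 707, 1631 and 734 in agoCD40, 1594, 518 and 589 in antiIL1R1, and 970.3, 1419.6 and 1364 in Combo. The groups overlapped and agoCD40 stood at 0.16 ± 0.50 against isotype on the log2 scale. Cyp2c55, another member induced by foreign compounds, ranged from 2.26 CPM in isotype 2 to 22.2 CPM in Combo 1.

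Among the other members of families 1 to 3 that act on foreign compounds, no gene passed in any comparison in the edgeR fit of all 12 libraries with the low-count filter. Cyp1a2, the caffeine-oxidising target of Ahr, measured 776, 1002 and 414 CPM in isotype and 951, 1044 and 1277 in agoCD40, against 967, 1249 and 729 in antiIL1R1 and 457, 908 and 981 in Combo. The groups overlapped. Cyp1a1, the most responsive Ahr target in many tissues, stayed between 0.323 and 0.884 TPM in all 12 libraries. Cyp1b1, which oxidises estrogens and is mainly expressed outside hepatocytes, measured 0.590, 0.553 and 1.37 CPM in isotype, 2.97, 1.51 and 4.23 in agoCD40, 0, 0.980 and 0.715 in antiIL1R1, and 5.22, 3.04 and 2.19 in Combo. All 6 libraries given the agonist lay above the 6 without it. Combo against antiIL1R1 stood at 2.60 ± 0.79 on the log2 scale (edgeR adjusted p = 0.187; DESeq2 adjusted p = 0.0196). The fold change was 2.01 without antiIL1R1 1, where the gene was at 0. Of 6 stellate-cell markers, 0 passed in Combo against antiIL1R1, and their sums were 123 to 131 TPM in antiIL1R1 and 103 to 309.7 in Combo. Their part in the Cyp1b1 values was not tested.

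Cyp2a5, the coumarin hydroxylase, was high in every library, from 588 to 1720.1 CPM, and its groups overlapped. Cyp2a4, a steroid hydroxylase whose transcript shares 55.9% of its 31-base stretches with Cyp2a5, showed the widest spread of all 54 members. It measured 1.88, 0.402 and 74.4 CPM in isotype, 0.467, 0.553 and 3.98 in agoCD40, 1.91, 0.408 and 0.635 in antiIL1R1, and 17.7, 1.281 and 3.33 in Combo. Isotype 3 alone set the isotype mean. The log2 fold change of antiIL1R1 against isotype was -4.72 ± 1.64 with all libraries (edgeR adjusted p = 0.987) and -0.21 without isotype 3. The interaction was 6.86 ± 2.19 (edgeR adjusted p = 0.544) and 2.36 without isotype 3. An edgeR fit without the low-count filter, with isotype 3 included, called Cyp2a4 in both of these comparisons.

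Cyp2b10, the classic target of the receptor Nr1i3, was highest in Combo. It measured 8.47, 5.22 and 17.1 CPM in isotype, 3.14, 10.4 and 9.50 in agoCD40, 7.83, 3.88 and 4.45 in antiIL1R1, and 20.2, 18.1 and 15.7 in Combo. The Combo libraries lay above all agoCD40 and antiIL1R1 libraries and overlapped isotype 3. Combo against antiIL1R1 stood at 1.74 ± 0.47 on the log2 scale and did not pass (edgeR adjusted p = 0.145), while DESeq2 (adjusted p = 0.0116) and an edgeR fit on those 2 groups alone (adjusted p = 0.0298) called it. Combo against agoCD40 stood at 1.22 ± 0.46 (edgeR adjusted p = 0.745) and antiIL1R1 against isotype at -0.94 ± 0.47 (edgeR adjusted p = 0.987), or -0.35 without isotype 3. The interaction was 2.16 ± 0.65 (edgeR adjusted p = 0.536). An edgeR fit without the low-count filter called Cyp2b10 in the interaction, in Combo against agoCD40 and in Combo against antiIL1R1. Cyp2b9, its close relative, was at 0 to 6.44 CPM and reached 2.02 CPM or more in all 3 Combo libraries but in only 1 other library, agoCD40 3. No member of Cyp2b passed in the main test.

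In Cyp3a, Cyp3a11 and Cyp3a25 overlapped between all groups. Cyp3a13, a member also expressed in the intestine, had the smallest p of any member with a lower level under the agonist. It measured 180.1, 156 and 197 CPM in isotype and 118, 127 and 135 in agoCD40, with no overlap, against 176, 123 and 151 in antiIL1R1 and 152, 123 and 143 in Combo. The log2 fold change of agoCD40 against isotype was -0.49 ± 0.16 (edgeR adjusted p = 0.265).

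Cyp2f2, which oxidises naphthalene and marks periportal hepatocytes as well as club cells of the lung, measured 1041, 638 and 733 CPM in isotype, 1028, 1327 and 1294 in agoCD40, 1164, 699 and 665 in antiIL1R1, and 1374, 1468 and 1289 in Combo. Combo lay above both groups that had no agonist. Its log2 fold change against isotype was 0.78 ± 0.24 (edgeR adjusted p = 0.208), and the club-cell gene Scgb1a1 was listed at 0 TPM in every group. Cyp2d22 measured 177, 219.8 and 166 CPM in isotype and 238, 277 and 273 in Combo, a log2 fold change of 0.48 ± 0.16 (edgeR adjusted p = 0.258). Cyp2g1, best known from the olfactory lining, measured 1.72, 2.01 and 2.23 CPM in isotype, 3.44, 3.58 and 6.41 in agoCD40, 4.46, 2.61 and 1.95 in antiIL1R1, and 5.26, 3.92 and 6.96 in Combo. Its fold change was 1.17 ± 0.37 in agoCD40 (edgeR adjusted p = 0.227) and 1.43 ± 0.37 in Combo (edgeR adjusted p = 0.143; DESeq2 adjusted p = 0.0162) against isotype. In TPM the isotype and agoCD40 libraries of Cyp2g1 overlapped (4.74, 1.82 and 4.99 against 3.01, 7.32 and 5.84), and on log2(TPM + 1) the fold changes were 0.41 and 0.81.

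Cyp2r1, a vitamin D hydroxylase of the liver, stayed between 15.0 and 21.8 CPM. Cyp2j5, an arachidonic acid epoxygenase, ranged from 235 to 459 CPM with overlapping groups. Cyp2u1, a fatty acid hydroxylase, measured 46.3, 43.2 and 38.9 CPM in agoCD40 and 20.6, 22.8 and 34.4 in Combo, without overlap, while isotype (27.8, 57.9 and 22.96) overlapped both. Combo against agoCD40 stood at -0.72 ± 0.31 on the log2 scale (edgeR adjusted p = 0.781). Cyp2s1 stayed at or under 1.502 CPM and Cyp2d11 at or under 0.664 CPM. In antiIL1R1 against isotype their log2 fold changes were 1.13 ± 0.69 and -1.03 ± 0.63 (edgeR adjusted p = 0.987 for both), and that of Cyp2s1 was 0.55 without antiIL1R1 1.

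Cyp4a10 and Cyp4a14, fatty acid hydroxylases and standard targets of Ppara, differed more between livers than between groups. Cyp4a14 measured 382, 67.2 and 138 CPM in isotype, 13.7, 10.1 and 169.5 in agoCD40, 303, 85.2 and 119 in antiIL1R1, and 139, 133 and 234 in Combo. AgoCD40 1 and agoCD40 2 were the lowest of the 12 libraries, while agoCD40 3 lay among the controls. Cyp4a10 measured 258, 59.8 and 48.0 CPM in isotype, 74.1, 55.0 and 432 in agoCD40, 221, 75.9 and 66.0 in antiIL1R1, and 153, 230.4 and 338 in Combo. For both genes the highest library was the same in each group: isotype 1, agoCD40 3, antiIL1R1 1 and Combo 3. The log2 fold change of agoCD40 against isotype was -1.60 ± 0.93 for Cyp4a14 and 0.62 ± 0.80 for Cyp4a10 (edgeR adjusted p = 0.644 and 0.899), differences within the spread of the libraries.

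**Figure D4:**
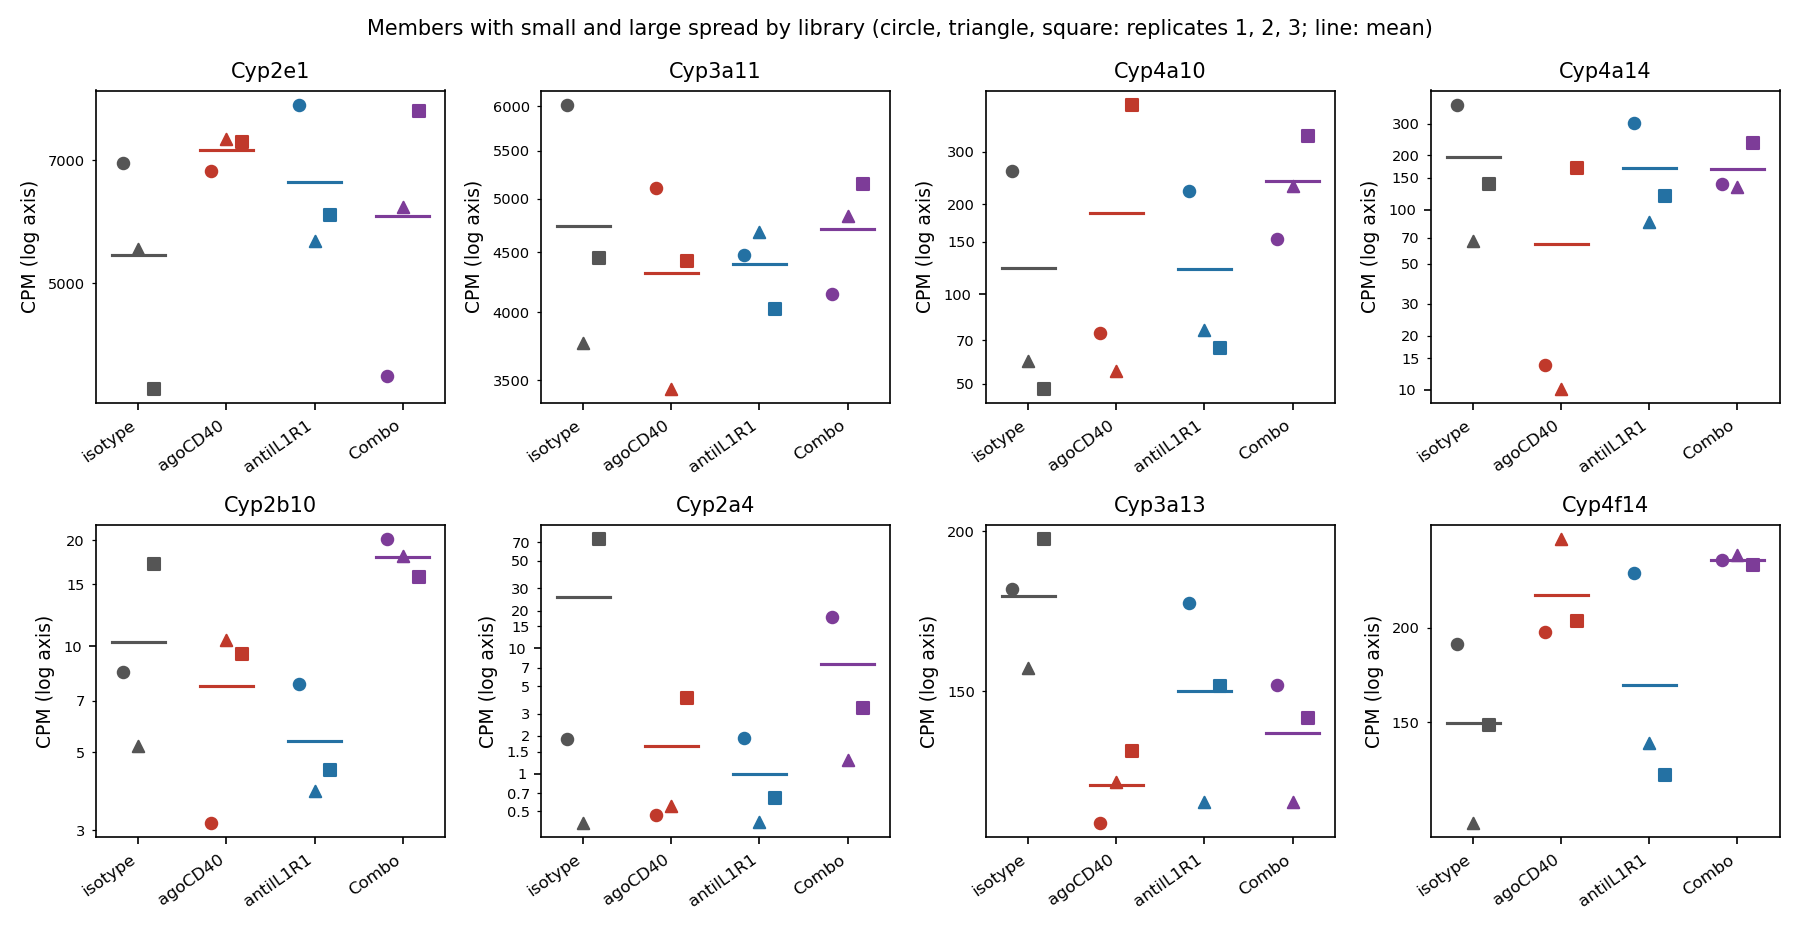
CPM (log axis, own scale per gene) of 8 members in each library, with the group mean as a line. Cyp4a14 spans 10.1 to 382 CPM with overlapping groups and Cyp2a4 is set apart by isotype 3 at 74.4 CPM, whereas the 3 Combo libraries of Cyp2b10 (15.7 to 20.2) and Cyp4f14 (242 to 249) lie close together.

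Among the leukotriene and fatty acid hydroxylases of Cyp4f, Cyp4f14 measured 190.1, 110.3 and 149 CPM in isotype, 197, 262 and 204 in agoCD40, 236, 141 and 128 in antiIL1R1, and 246, 249 and 242 in Combo. All 6 libraries given the agonist lay above the isotype libraries, and the log2 fold change was 0.56 ± 0.24 in agoCD40 (edgeR adjusted p = 0.442) and 0.72 ± 0.24 in Combo (edgeR adjusted p = 0.274). Cyp4f15 had the smallest spread inside groups of all 54 members. It measured 118, 114 and 112 CPM in antiIL1R1 and 177, 153 and 156 in Combo, a log2 fold change of 0.50 ± 0.14 (edgeR adjusted p = 0.168; DESeq2 adjusted p = 0.0406). Cyp4f18, which degrades leukotriene B4 in neutrophils, measured 0.375, 0.703 and 0.816 CPM in isotype, 1.10, 0.774 and 1.80 in agoCD40, 0.273, 0.572 and 0.754 in antiIL1R1, and 1.14, 2.16 and 2.02 in Combo. Combo against antiIL1R1 stood at 1.72 ± 0.52 on the log2 scale without overlap (edgeR adjusted p = 0.187). In the same comparison 4 of 6 neutrophil markers were higher (Camp, Ngp, S100a8 and S100a9), and the 6 markers summed to 51.5 to 135 TPM in isotype, 131 to 228 in agoCD40, 6.33 to 20.8 in antiIL1R1 and 98.9 to 230.5 in Combo. Their part in the Cyp4f18 values was not tested. Cyp4v3, a fatty acid hydroxylase, measured 411, 334 and 307 CPM in isotype and 422, 497 and 525 in agoCD40, a log2 fold change of 0.46 ± 0.19 without overlap (edgeR adjusted p = 0.419).

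With IL-1R1 blockade alone, 0 of 54 members and 0.0% of all genes passed against isotype (edgeR), and DESeq2 also called 0 members, beside 0.0194% of all genes. The libraries did not overlap for 1 member (1.85%) that was higher, Cyp2d9, beside 3.1% of all genes. The same held for 1 (1.85%) that was lower, Cyp2d11, beside 3.33%. An unadjusted p under 0.05 was reached by 1 member (1.85%), Cyp2a4, beside 3.65% of all genes. The median log2 fold change was 0.06 over the members, and 51 of the 54 lay within a 2-fold change in either direction. All 4 tested Cyp3a and all 4 tested Cyp4a members had negative values, while Cyp4a12a and Cyp4a12b, outside the naming rule, were both positive. In Combo against isotype 0 members passed with edgeR, beside 0.407% of all genes. DESeq2 called 2 (3.7%), Cyp2c40 and Cyp2g1, beside 2.44%. An unadjusted p under 0.05 was reached by 10 members (18.5%), beside 11.5% of all genes. The libraries did not overlap for 9 members (16.7%) that were higher in Combo, beside 8.78% of all genes. The same held for 1 (1.85%) that was lower, beside 7.57%.

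Adding blockade to the agonist was read from Combo against agoCD40, where 0 members passed with edgeR and with DESeq2, beside 0.00647% of all genes with edgeR and 0.556% with DESeq2. The libraries did not overlap for 1 member (1.85%) that was higher in Combo, beside 7.64% of all genes. The same held for 5 (9.26%) that were lower, beside 7.07%. An unadjusted p under 0.05 was reached by 5 members (9.26%), beside 6.21% of all genes, and Cyp2c40 and Cyp2c69 had the 2 smallest. Negative log2 fold changes were found for 9 of 12 Cyp2c genes, with a median of -0.47. This comparison and agoCD40 against isotype share the agoCD40 libraries, so their opposite signs are not independent. In Combo against antiIL1R1 0 members passed with edgeR, beside 0.175% of all genes. DESeq2 called 3 (5.56%), Cyp1b1, Cyp2b10 and Cyp4f15, beside 3.14%. The libraries did not overlap for 11 members (20.4%) that were higher, beside 12.3% of all genes. The same held for 2 (3.7%) that were lower, beside 9.92%. An unadjusted p under 0.05 was reached by 14 members (25.9%), beside 15.3% of all genes. The interaction asks whether the agonist effect differed with and without blockade. No member passed with edgeR (0 of 54, beside 0.00647% of all genes) or with DESeq2 (0.563% of all genes). In the edgeR fit 5 members (9.26%) reached an unadjusted p under 0.05, beside 7.51% of all genes. Cyp2c40 stood at -1.81 ± 0.61 (edgeR adjusted p = 0.547) and Cyp2c69 at -1.61 ± 0.73 (edgeR adjusted p = 0.660). With 1 library left out at a time, the Cyp2c69 value ran from -2.53 (without isotype 1) to -1.27. In the fit with the low-count filter, the agonist values with and without blockade were thus not shown to differ. An edgeR fit without that filter called 3 members in the interaction (Cyp2a4, Cyp2b10 and Cyp2c40), among 232 of 27704 genes. It also called 5 members in Combo against agoCD40 (Cyp2a4, Cyp2b10, Cyp2c40, Cyp2c69 and Cyp4a14), among 197 genes.

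Within groups, the members spread more than genes at large. The pooled within-group standard deviation of log2(CPM + 0.5) had a median of 0.428 over the 54 members and 0.310 over all genes tested. It was widest for Cyp2a4 (2.02), Cyp4a14 (1.37), Cyp4a10 (1.17) and Cyp2b9 (1.05), and narrowest for Cyp4f15 (0.139). Single libraries were at the edge of their group for many members, though not for all. Combo 1 was the lowest of its group for 32 members (38.5% of all genes) and the highest for 12. AntiIL1R1 3 was the lowest for 29 (25.9% of all genes) and the highest for 3. AntiIL1R1 1 was the highest for 31 (37.9% of all genes) and the lowest for 10.

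The genes that serve the enzymes were read from fixed lists in the same fit. Of 13 redox partners and heme-synthesis genes, 0 passed in any of the 6 comparisons, and 3 reached an unadjusted p under 0.05 in agoCD40 against isotype, beside 10.2% of all genes. Por, which passes electrons to these P450 enzymes, measured 259.9, 168 and 283 TPM in isotype, 129, 136 and 171 in agoCD40, 267, 156 and 189 in antiIL1R1, and 316, 256 and 279.8 in Combo. The Combo libraries lay above the agoCD40 libraries, and isotype 2 overlapped agoCD40. Its log2 fold change was -0.62 ± 0.18 in agoCD40 against isotype (edgeR adjusted p = 0.172) and 0.77 ± 0.18 in Combo against agoCD40 (edgeR adjusted p = 0.280). Alas1, the first enzyme of heme synthesis, stood at -0.80 ± 0.32 and 1.07 ± 0.33 in the same comparisons (edgeR adjusted p = 0.405 and 0.531). Neither gene passed.

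Of 23 transcription factors and receptors known to act on P450 genes, 22 were tested and 0 passed in any comparison, with 9 at an unadjusted p under 0.05 in agoCD40 against isotype, beside the same 10.2% of all genes. The smallest p belonged to Foxa2, a hepatocyte pioneer factor, at 0.91 ± 0.21 on the log2 scale (edgeR adjusted p = 0.0870), and to its relative Foxa3 at -0.63 ± 0.20 (edgeR adjusted p = 0.227). In Combo against isotype, Cebpa, a hepatocyte transcription factor, stood at 0.45 ± 0.15 (edgeR adjusted p = 0.276). Of the 5 genes with a lettered symbol, 2 were tested. Cyp4a12b measured 53.6, 21.7 and 27.3 TPM in isotype and 71.1, 71.8 and 92.8 in agoCD40, without overlap, a log2 fold change of 1.24 ± 0.31 (edgeR adjusted p = 0.107), and Cyp4a12a stood at 0.78 ± 0.34 (edgeR adjusted p = 0.443).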

How the data were processed

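Liver poly(A) RNA libraries were grouped by the labels, 3 per group. The deposited tables give the authors' expected counts (estimated counts per gene) and the authors' TPM values for 56748 genes. The submitters' processing notes name Trim Galore 0.6.7, cutadapt, FastQC 0.12.1, STAR, RSEM 1.3.1, StringTie 2.2.1, SAMtools 1.16.1, Picard 3.0.0, bedtools 2.30.0, DESeq2 1.28.0 and GRCm39, with no roles, so the counting program is not given in the sources. The strand setting is not given either, so overlapping genes are uncertain.

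Expected counts were rounded and tested with edgeR 4.0.16 (R 4.3.3; TMM factors, quasi-likelihood test, all 12 libraries in 1 fit, minimum count 10, Benjamini-Hochberg adjustment over the 15465 genes tested, threshold 0.05). The interaction is the agonist effect with blockade minus that without. Standard errors were derived from the test statistic. DESeq2 1.42.0 and limma 3.58.1 served as alternatives, with other scalings, filters, designs and left-out libraries. Tables were made with Python 3.11.15, pandas 2.3.3 and numpy 2.4.6. Total counts of 18681390 to 27118712 per library limit the precision of genes near 1 CPM. Tested on simulated data for agoCD40 against isotype, the fit (15465 genes) found 82 of the 100 genes given a 4-fold change, 33 of the 100 given a 2-fold change, and 8 that were given none. For the interaction the fit found 66 of 100 such genes at 4-fold, 8 of 100 at 2-fold, and 5 that were given no change. The genes given a change were drawn from those with a mean of at least 1 CPM. Recovery of genes below that level was not measured.

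The members and lists were chosen with earlier results of these data known. Fold changes are named for members that pass, or with the 4 smallest p of a comparison. Those of Cyp2c29, Cyp2c67, Cyp2c68, Cyp4a10, Cyp4a14, Cyp4f14 and Cyp4v3, where given outside that rule, were chosen after their values were seen. Promoters came from a RefSeq table for GRCm38.p6, which matched 61 of 75 members, and no coordinates were converted. Shared 31-base stretches were counted in GENCODE transcripts. The result of 1 listed regulator is not reported here.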

Additional observations from a re-analysis of the deposited data

How the results depend on the processing

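In agoCD40 against isotype, 1 member was called with RLE factors, total counts, limma on log2(TPM + 0.1), only the groups compared, the mitochondrial percent as a covariate, or without isotype 2 and antiIL1R1 2. DESeq2 called 2 members there, 2 in Combo against isotype and 3 in Combo against antiIL1R1. Limma on log2(TPM + 1) called 2 in agoCD40 against isotype. With no filter on low counts 65 members and 27704 genes were tested. The members called were then 5 in agoCD40 against isotype (466 of all genes), 1 in antiIL1R1 against isotype (63), 6 in Combo against isotype (466), 5 in Combo against agoCD40 (197), 9 in Combo against antiIL1R1 (742) and 3 in the interaction (232). Cyp2c40 was among them in each comparison except antiIL1R1 against isotype. Cyp2a4, the member with the widest spread, was among them in each comparison except Combo against isotype. Cyp2c69 was among them in agoCD40 against isotype and in Combo against agoCD40. A fit of only the groups compared called 1 member, Cyp2b10, in Combo against antiIL1R1, and the mitochondrial covariate 1, Cyp4f14, in Combo against isotype. Leaving out 1 library at a time gave 0 (without agoCD40 3) to 2 (without isotype 1) in agoCD40 against isotype and 0 in the other comparisons. The cause of these shifts was not tested. Over 24 named fold changes, 380 alternative values kept direction and side of the threshold, 22 newly passed it, 1 lost it (Cyp2c40 without agoCD40 3) and 0 reversed.

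Taken over all groups, same-numbered libraries did not deviate together (median correlation -0.026 over 18 pairs, 2 of them over 0.1). The median was 0.032 over 36 other pairs, 12 of them over 0.1. The highest correlation was 0.406 among same-numbered pairs and 0.363 among the others. A median over all pairs cannot decide whether the numbers pair the samples of some groups only. With the replicate number as a block, 1 member was called in agoCD40 against isotype and 0 in the other comparisons, Cyp2c40 stood at 2.92 (edgeR adjusted p = 0.0352), and 9 members rather than 15 had an unadjusted p under 0.05 in agoCD40 against isotype.

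Over all genes, the 111 calls in agoCD40 against isotype became 399 with DESeq2, 466 without a filter, 256 with the mitochondrial covariate, 72 with the replicate block, 59 with limma on log2(TPM + 1), 67 on log2(TPM + 0.1), 28 with only the groups compared, and 28 to 102 with 1 library left out. The 63 in Combo against isotype became 377, 466, 292 and 23 with DESeq2, no filter, the mitochondrial covariate and the replicate block, 9 with only the groups compared, 35 without isotype 2 and antiIL1R1 2, and 12 to 39 with 1 library left out. The 27 in Combo against antiIL1R1 became 486 with DESeq2, 742 without a filter, 69 with only the groups compared, 46 and 44 with limma on log2(TPM + 1) and log2(TPM + 0.1), 9 with the replicate block, 10 without isotype 2 and antiIL1R1 2, and 4 to 36 with 1 library left out. Total-count scaling moved the median of all genes from -0.02 to 0.11 in Combo against isotype and from 0.03 to 0.19 in Combo against antiIL1R1. Genes near 1 CPM, such as Cyp1b1, Cyp2c69 and Cyp4f18, are limited by depth.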
